A study of Homo sapiens with 18 samples.

Results

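The cytosolic ribosomal protein (RP) genes encode the proteins of the ribosome in the cytoplasm. They were chosen by symbol alone, as every gene whose symbol is RPL or RPS followed by a number, with at most a letter A, X, Y or L and a further number after it, together with RPSA, RPLP0, RPLP1 and RPLP2. This gave 86 of the 20555 genes in the deposited table, 52 with RPL symbols for the large subunit and 34 with RPS symbols for the small subunit. Kinase genes such as RPS6KB1 carry similar symbols and were left out. The symbol rule uses no measured value, although it was set with earlier results of these data known.

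Each ribosome holds 1 copy of nearly every RP, apart from the acidic stalk proteins RPLP1 and RPLP2, and their genes are among the most strongly transcribed of any cell. Their mRNAs belong to the TOP class, which begins at a C followed by a run of pyrimidines (C or T), and which mTORC1 controls mainly at translation through LARP1. Several RPs have a paralog made from a separate gene, which can take the place of the parent protein. RPL5 and RPL11 also bind MDM2 outside the ribosome and thereby link ribosome assembly to p53.

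The 18 samples were subcutaneous tumors of MSTO-211H [sh-YAP1], a human pleural mesothelioma cell line that carries a short hairpin RNA against YAP1 under a doxycycline-dependent promoter, grown in SCID mice, which lack mature lymphocytes but keep myeloid and stromal host cells. All tumors came from the same line and grew to about 300 mm3 in mice drinking 5% glucose. The 0h group (n = 5) was sampled at that size with no doxycycline, and the 24h (n = 4), 96h (n = 5) and 216h (n = 4) groups carry labels of 24, 96 and 216 h on 0.5 mg/ml doxycycline with 5% glucose. The protocol in the labels gives 5 mice at 24h, of which 4 are analysed here. For the last group the study's own text is not uniform, since it lists 216 h on doxycycline, like the labels, and also describes a last time point of 96 h on doxycycline followed by a time without it. No group received doxycycline without the hairpin. RNA went through exome capture, and expression was given in FPKM, a level that takes account of how long a gene is and how many fragments were mapped. Fold changes below are on the log2(FPKM + 1) scale, from limma, with p-values adjusted by Benjamini-Hochberg over all 11379 genes that reached 1 FPKM in at least 4 tumors. A gene was called at an adjusted p under 0.05.

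YAP1, the target of the hairpin, was measured at 4.82 to 10.2 FPKM at 0h, 4.60 to 8.16 at 24h, 3.39 to 6.81 at 96h and 5.60 to 8.85 at 216h. The groups overlapped, and YAP1 was not called in any comparison (96h vs 0h, log2 fold change -0.52, limma adjusted p = 0.221). By RT-qPCR, the study reports lower YAP1 mRNA at every later time point in this tumor model. It also reports a falling score of YAP1-TEAD target genes. The FPKM values of YAP1 alone do not settle whether the hairpin acted, and the difference between the methods was not tested. Of 10 mesothelial markers, KRT8 (95.2 to 214 FPKM) and KRT18 (64.1 to 202) were abundant, MSLN was low (1.99 to 5.16) and PDPN was listed at 0 in all 18 tumors. The 13 mitochondrially encoded genes took 74.9 to 84.8% of each tumor's FPKM sum, with the lowest shares at 216h (74.9 to 76.0%). Between 4767 and 6491 genes were listed at 0, with a gap between 5179 and 5593 that put all 5 tumors of 0h on the upper side and all 5 of 96h on the lower. Depth is unknown, since only FPKM was used.

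Start sites are shown for the members whose levels differed most between groups, for 2 of their parent genes, and for abundant members with a typical start. Of the 86 members, 69 had an entry in the RefSeq promoter table (GRCh38.p14). Each line gives 30 bases of the strand that reads like the mRNA, 15 before the start and 15 from the start on. Capitals mark a tract that begins with a C within 2 bases of the start and goes on with at least 4 pyrimidines. Genes shown wholly in lower case had no such tract at the listed start.
RPL37A (chr2:216498829-216498858, plus strand): gcaccgcgtctcttcCTTTCTgggctcgga
RPL31 (chr2:101002274-101002303, plus strand): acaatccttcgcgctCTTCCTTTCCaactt
RPLP1 (chr15:69452803-69452832, plus strand): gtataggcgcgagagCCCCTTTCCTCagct
RPS12 (chr6:132814554-132814583, plus strand): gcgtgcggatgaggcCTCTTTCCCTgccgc
RPS13 (chr11:17077653-17077682, minus strand): ttccactctcgctctCCTTTCgttgcctga
RPS4X (chrX:72277234-72277263, minus strand): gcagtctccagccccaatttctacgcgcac
RPL10 (chrX:154398050-154398079, plus strand): tttttccactctcagaaatatacgtctgtc
RPL10L (chr14:46651767-46651796, minus strand): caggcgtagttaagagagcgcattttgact
RPL22 (chr1:6199581-6199610, minus strand): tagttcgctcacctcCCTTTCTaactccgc
RPL22L1 (chr3:170870181-170870210, minus strand): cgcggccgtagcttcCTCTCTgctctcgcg
RPL26 (chr17:8383179-8383208, minus strand): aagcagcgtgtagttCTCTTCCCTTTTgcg
RPL26L1 (chr5:172958714-172958743, plus strand): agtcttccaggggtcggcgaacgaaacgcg

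The tract was found at 47 of the 69 listed members (68.1%), against 10.5% of all 27305 promoters in the table, 12.4% of 8821 listed genes that were tested here and 7 of 69 genes for mitochondrial RPs (10.1%). The search ran only on the strand that reads like the mRNA. RPL22 and its paralog RPL22L1 both carried it. RPL26 carried it and its paralog RPL26L1 did not, and neither RPL10 nor RPL10L did at these starts. Members with the tract had a median mean level at 0h of 320 FPKM (n = 47) and those without it 224 FPKM (n = 22), and the ranges of the 2 sets overlapped widely (1.72 to 2066 and 0.0511 to 1049 FPKM).

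At 0h the RP genes stood among the most abundant of the table. Of the 50 genes with the highest mean FPKM at 0h, 18 were members, and 61 of the top 200 were. Among the 83 members that passed the filter the median of mean FPKM at 0h was 307, with quartiles at 154 and 521, against 5.16 over all tested genes. Levels per length differed widely between members. How well each gene was captured is not known, so these differences need not reflect the number of transcripts. RPL37A, a zinc-binding protein of the large subunit, was highest at 2066 ± 121 FPKM (SD, n = 5). RPL31 (1483 ± 77.4), RPL38 (1339 ± 50.2), RPL28 (1107 ± 50.8) and RPL37 (1061 ± 102) came next. RPL37 and the sixth gene, RPL27, did not differ beyond their spread, with ranges of 972 to 1196 and 959 to 1111 FPKM.

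**Figure D1:**
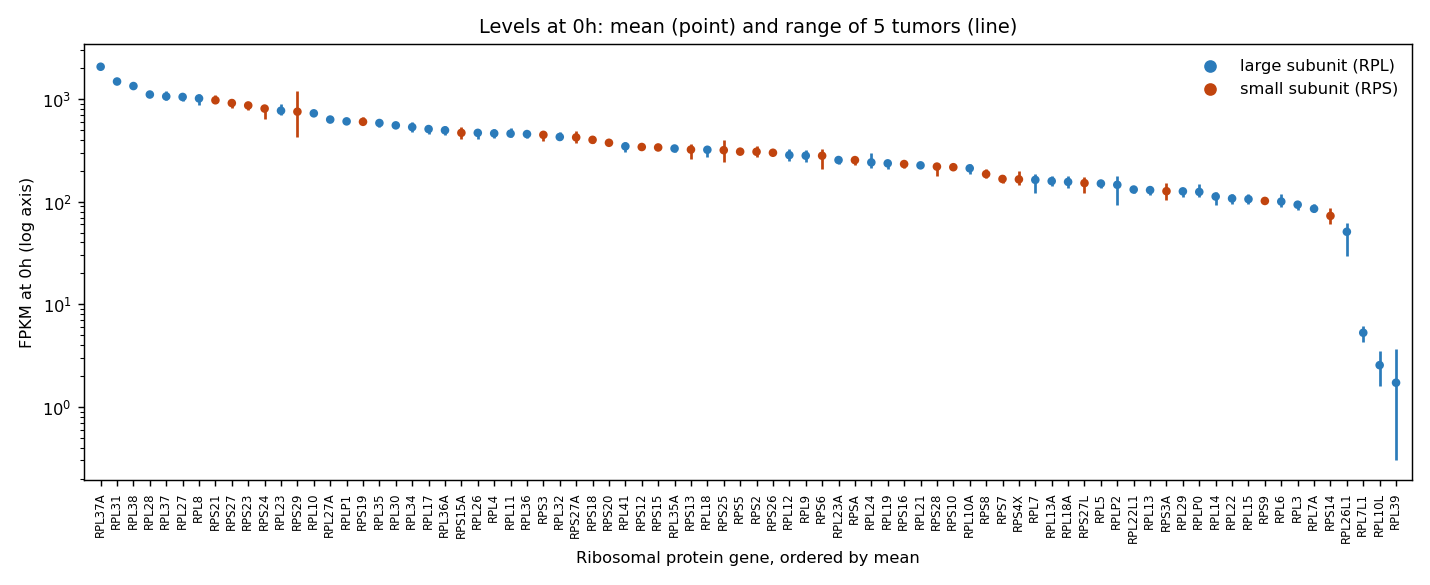
Level of each RP gene at 0h in FPKM on a log axis, ordered by the mean. Points are means and lines the range of the 5 tumors, blue for the large and red for the small subunit. The genes with a mean of at least 1 FPKM are drawn, and the Y-linked members and a few others are left out. Of the genes drawn, RPL7L1, RPL10L and RPL39 lie below 10 FPKM, and RPL37A is highest at 2066.

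Paralogs filled much of the low end. RPL7L1, which acts in ribosome assembly, had 4.30 to 6.16 FPKM at 0h and RPL10L, known from testis, 1.61 to 3.49. RPL26L1 had 29.4 to 61.9, and RPL22L1 (121 to 141) and RPS27L (122 to 174), a p53 target, were at levels of common RP genes. RPL3L, the form of heart and skeletal muscle, was listed at 0 in 11 of 18 tumors and never passed 0.406 FPKM, and RPL39L was above 0 in 1 tumor only, at 0.318 FPKM. These 2 and the Y-linked RPS4Y2 did not pass the filter, so that 83 members were tested.

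RPL39, a core protein at the exit tunnel of the ribosome, was also measured low, with 0.503, 2.91, 3.68, 1.20 and 0.301 FPKM in the 5 tumors of 0h and no more than 4.87 in any tumor. It had the largest spread within groups of all members, 0.777 on the log2 scale (pooled SD), followed by RPS29 (0.695, named after the values were seen) and RPL26L1 (0.602), against a median of 0.161 over the 83 members and 0.250 over all tested genes. RPS29 ranged from 424 to 2095 FPKM between tumors, with a GENCODE 29 principal transcript of only 296 bases. The smallest spread was that of RPL30 (0.0728), also named afterwards, and of RPS12 (0.0760). RP transcripts are short, with a median principal transcript of 714 bases against 2464.5 over all coding genes, and they have many processed pseudogenes. In a median member, 45.4% of the 31-base words of that transcript also occur in transcripts of other genes, and 39 of 86 members share at least 50%. For RPL39 the percentage was 47.7%. How the counting handled such fragments is not given in the sources used here. Level at 0h had a Spearman correlation across genes of -0.25 with transcript length and -0.28 with the shared percentage over 83 members, which are not independent replicates. Some principal transcripts are far longer than the median, such as those of RPL37 (7686 bases) and RPL37A (3647 bases). FPKM already divides by a length, and which length was used is not known.

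The RP genes together took 3.26, 3.10, 3.14, 2.65 and 2.93% of the FPKM sum in the tumors of 0h. Their share was 2.55, 3.48, 3.08 and 3.76% at 24h and 3.46, 3.14, 3.25, 3.36 and 3.91% at 96h. At 216h it was 3.87, 3.71, 3.83 and 3.92%. All 4 tumors of 216h lay above every tumor of 0h on this scale. Since the mitochondrial share was lowest at 216h, the same sums were set against the total without the 13 mitochondrial genes. There the RP genes took 16.4 ± 0.512% at 0h (SD, n = 5), 18.8 ± 1.87% at 24h (n = 4), 17.5 ± 0.803% at 96h (n = 5) and 15.6 ± 0.431% at 216h (n = 4). On this second scale 216h (15.3 to 16.1%) overlapped 0h (15.5 to 16.8%) and had the lower mean, so the order of the 2 groups depended on the denominator. The RP sum itself was 32235 to 35648 FPKM at 0h and 34363 to 36324 at 216h. In bulk tumors, more cells of a type and more RNA per cell cannot be told apart.

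**Figure D2:**
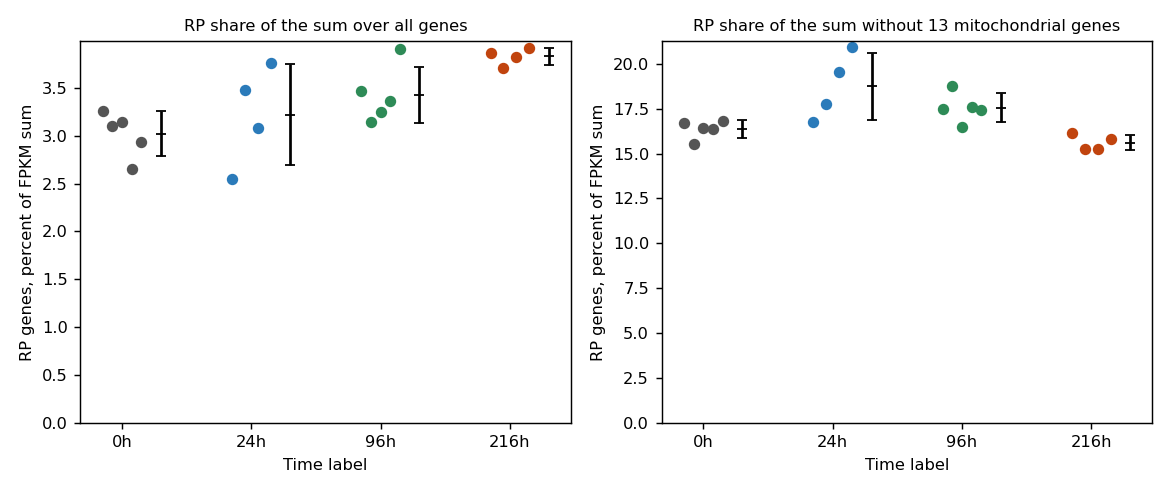
Share of the RP genes in each tumor's FPKM sum, in percent, by time label. The left panel uses all genes and the right panel leaves out the 13 mitochondrial genes. Points are tumors and bars show mean and SD. The 216h tumors are at 3.71 to 3.92% on the left, above all 0h tumors, and at 15.3 to 16.1% on the right, overlapping them.

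The study used RPL37 as the reference gene of its RT-qPCR. RPL37 had 1196, 972, 1139, 972 and 1025 FPKM at 0h and 1005, 1133, 1223 and 1333 at 24h. At 96h the tumors had 1077, 1050.1, 1047, 1056 and 1084 FPKM, and at 216h 1111, 1012, 1167 and 1101. All later groups overlapped the range of 0h. The mean log2 difference from 0h was 0.14 at 24h (two-sided exact permutation test, p = 0.222, adjusted over 3 comparisons p = 0.667), 0.01 at 96h (p = 0.865, adjusted p = 0.865) and 0.05 at 216h (p = 0.540, adjusted p = 0.810). The smallest p these designs allow is 0.0159 for 4 against 5 tumors and 0.00794 for 5 against 5. The limma intervals (95%) of the difference ran from -0.03 to 0.31, -0.15 to 0.17 and -0.12 to 0.22. The sign at 96h and 216h depended on the scaling, and the difference at 24h was 0.04 after quantile normalization and 0.08 without 24h replicate 4.

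Other common reference genes were as follows. RPLP0, the scaffold of the stalk, went from 124 ± 14.9 FPKM at 0h (SD, n = 5) to 152 ± 5.48 at 96h (n = 5), a log2 difference of 0.29 that was not called (limma adjusted p = 0.194). RPL13A (log2 difference at 216h 0.12) and RPS18 (0.08) were not called in any comparison. RPS6, the phosphorylation target of S6 kinase, had its highest levels at 24h with 338, 305, 364 and 428 FPKM, against 286, 207, 325, 275 and 308 at 0h. The groups overlapped and RPS6 was not called (log2 difference 0.36, limma adjusted p = 0.339).

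At 24h against 0h no RP gene was called, where 0.158% of all tested genes were called (18 of 11379), 0.00879% as higher and 0.149% as lower. Among the members 17 had an unadjusted p under 0.05, and the lowest adjusted p was 0.243. The share of all tested genes at that unadjusted cut is not given here, so the 17 cannot be read as an excess. The fold change was above 0 in 74 of 83 members, with a median of 0.12 on the log2 scale against -0.04 over all tested genes. This lean rested largely on 24h replicate 4, which held the highest value of all 18 tumors for 59 of the 83 members. Without it 53 of 83 were above 0 and the median was 0.05. The other extreme was in the same group, as 24h replicate 1 held the lowest value for 29 members, and without it 80 were above 0 with a median of 0.21. Replicate 1 was on the side with more genes at 0 and replicate 4 on the side with fewer. Among the tumors with more genes at 0 (5 of 0h and 2 of 24h), 43 of 83 members were above 0 and the median was 0.01. RPL28, RPL30, RPL31, RPS23, RPL17 and RPL3 were the 6 members with every tumor of 24h above every tumor of 0h (named after their values were seen), and none lay wholly below, where 2.75% of all tested genes did not overlap, 0.466% above and 2.28% below.

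**Figure D3:**
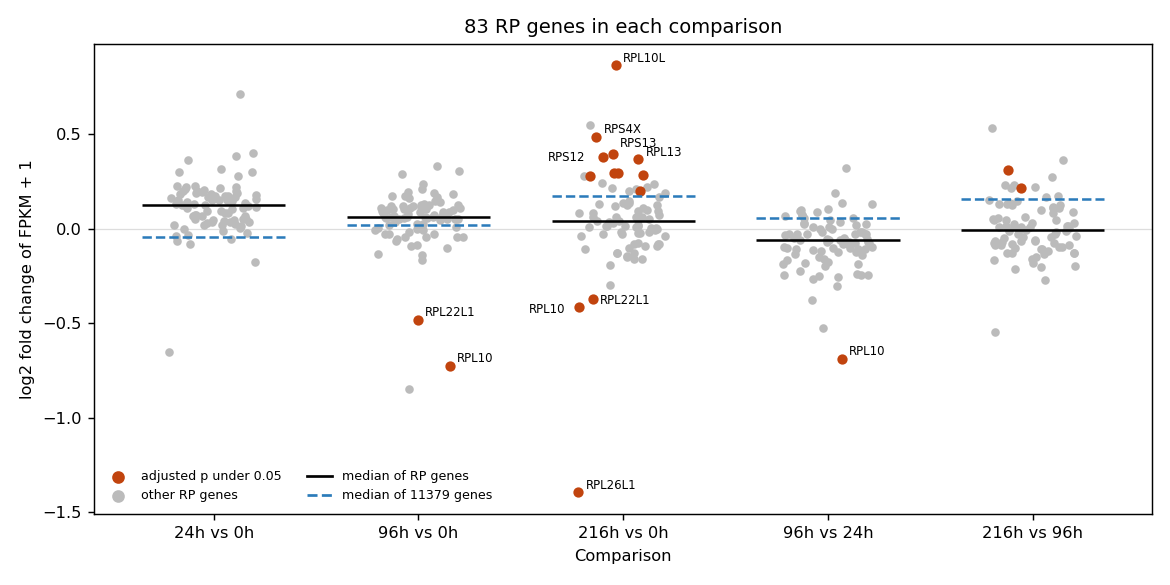
Log2 fold change of each of the 83 tested RP genes in 5 comparisons. Red points passed an adjusted p of 0.05, gray points did not, black lines are medians of the RP genes and dashed blue lines medians of 11379 genes. RPL10 lies lowest among called genes at 96h, and RPL26L1 and RPL10L are the outermost called genes at 216h.

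At 96h against 0h, 2 RP genes were called, RPL10 and RPL22L1, both lower, and none higher. Over all tested genes 1.38% were called (157 of 11379), 0.316% as higher and 1.06% as lower. The fold change was above 0 in 62 of 83 members with a median of 0.06 (0.02 over all tested genes), and with the side of the gap in genes at 0 as a covariate it was above 0 in 24 with a median of -0.11, so the direction of the lean was not stable. The tumors of 96h lay wholly above those of 0h for 4 members and wholly below for 3, where 4.17% of all tested genes did not overlap, 1.59% above and 2.58% below. RPL10 lies next to the peptidyl transferase centre and is needed for the joining of the subunits. Its gene (X:154397154-154403697 in the deposited table, GRCh38) had 789, 714, 722, 704 and 700.2 FPKM at 0h and 649.8, 702, 648 and 847 at 24h. At 96h it had 429, 408, 415, 474 and 473 FPKM, and at 216h 505, 597, 545 and 533. The 0h and 24h tumors overlapped, all 96h tumors lay below every other tumor, and the 216h tumors lay between.

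RPL10 fell by 0.72 ± 0.078 (SE) on the log2 scale at 96h against 0h (limma adjusted p = 3.83e-05), a 39.4% lower mean. It was also lower at 96h than at 24h (-0.69 ± 0.082, adjusted p = 0.00139), the only member called in that comparison, where 0.0439% of all tested genes were called. At 216h it was still below 0h (-0.41 ± 0.082, adjusted p = 0.00162) and above 96h (0.31 ± 0.082, adjusted p = 0.0211). The rise from 96h lost its call in 7 of 19 alternatives, with 0.10 when medians were set equal (adjusted p = 0.453), 0.14 without mitochondrial genes (adjusted p = 0.209) and 0.32 with the covariate for genes at 0 (adjusted p = 0.208). The fall from 0h was called at 96h and at 216h in all 20 alternatives tried for each. All 0h tumors had more genes at 0 and all 96h tumors fewer, so no value within 1 side can be given for that comparison. With the side as a covariate RPL10 was at -0.74 (adjusted p = 0.0167). Between the 5 tumors of 96h and the 2 of 24h with fewer genes at 0 it was at -0.75 (adjusted p = 0.286).

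RPL10 shares 50.4% of its 31-base words with other genes, most with the pseudogene RPL10P16, and overlaps DNASE1L1 on the other strand. DNASE1L1 had 2.90 to 3.52 FPKM at 0h and 2.64 to 3.83 at 96h, well under the level of RPL10. The paralog RPL10L, an intronless gene (14:46651010-46651821), shares only 3.45% of its words with others. It had 3.49, 3.02, 1.87, 2.76 and 1.61 FPKM at 0h and 2.62, 2.68, 4.16, 3.42 and 4.26 at 96h. At 216h it had 5.21, 3.26, 6.52 and 7.04 FPKM, with 3 of 4 tumors above every tumor of 0h. It rose by 0.86 ± 0.231 on the log2 scale at 216h against 0h (limma adjusted p = 0.0113), at at most 1.32% of the level of RPL10 in every tumor. The RPL10L call was lost in 1 of 19 alternatives (adjusted p = 0.0561). It was close to the threshold with medians set equal (0.64, adjusted p = 0.0452) and after quantile normalization (0.64, adjusted p = 0.0495).

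RPL22L1, the paralog of the RNA-binding RPL22, had 141, 121, 134, 132 and 128 FPKM at 0h and 103, 125, 117 and 121 at 24h. At 96h it had 94.7, 100.0, 77.8, 93.3 and 105 FPKM and at 216h 90.4, 103, 105 and 107. Every tumor of 96h and 216h lay below every tumor of 0h. It fell by 0.48 ± 0.086 at 96h (limma adjusted p = 0.00721) and by 0.37 ± 0.091 at 216h (adjusted p = 0.00687). With the side of the gap in genes at 0 as a covariate, the 96h call was lost (-0.43, adjusted p = 0.254), and the 216h call was lost in the fit to the 5 tumors of 0h and 3 of 216h that lay above the gap (-0.32, adjusted p = 0.0509). RPL22 itself differed from 0h by 0.12 at 96h and 0.02 at 216h (adjusted p = 0.770 and 0.949). The level of RPL22L1 was 112 to 140% of that of RPL22 at 0h, 72.2 to 90.1% at 96h and 82.7 to 103% at 216h, so that the order of the pair was reversed in every 96h tumor.

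At 216h against 0h, 10 RP genes were called as higher and 3 as lower, or 13 of 83. Over all tested genes 23.3% were called, 19.7% as higher and 3.60% as lower, so the members' share was below that of the table for rises and close to it for falls. Groups did not overlap for 11 members above and 5 below, where 18.7% of all tested genes did not overlap, 15.8% above and 2.90% below. The median of all tested genes itself shifted by 0.17 on the log2 scale, against 0.04 for the RP genes, so a typical RP gene rose less than a typical gene. The fold change of RP genes ran from -0.19 to 0.38 between the 5th and 95th percentile, against -0.41 to 0.90 for all tested genes.

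The split depended on how tumors were scaled. As deposited it was 10 higher and 3 lower, after centring on the RP genes 8 and 4, and after quantile normalization 9 and 4. It was 4 and 7 after rescaling without the mitochondrial genes and 1 and 14 after setting the medians of all tested genes equal. The shares of all tested genes called under the 4 other scalings are not given here. These counts therefore cannot be read as particular to the RP genes. Setting medians equal also takes the rise of the median gene off every gene. In all 5 versions RPL10L was called higher and RPL10, RPL22L1 and RPL26L1 lower. Without 216h replicate 4 the counts were 6 higher and 3 lower.

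**Figure D4:**
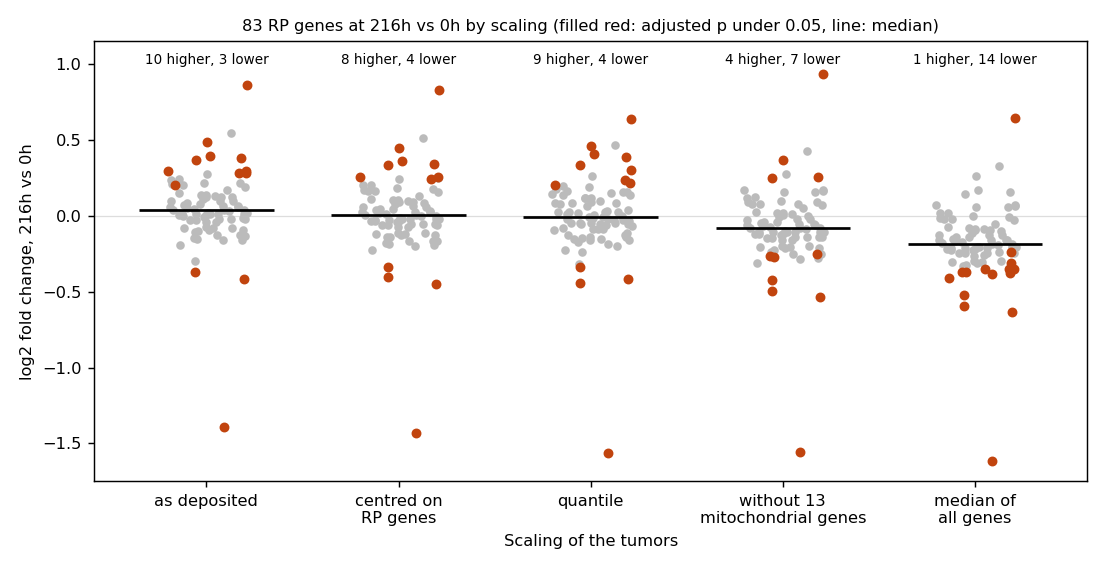
Log2 fold change at 216h vs 0h of the 83 tested RP genes under 5 ways of scaling the tumors. Red points passed an adjusted p of 0.05, gray points did not, and lines are medians. The median moves from 0.04 as deposited to -0.18 with equal medians of all genes, while RPL26L1 stays lowest and RPL10L highest.

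The genes called higher, apart from RPL10L, were small and large subunit members with rises of modest size. RPS4X, the X-linked form of a small subunit protein, had 145, 148, 198, 165 and 168 FPKM at 0h and 230.2, 236, 228 and 225 at 216h. All tumors of 216h lay above all of 0h, and RPS4X rose by 0.49 ± 0.10 on the log2 scale (limma adjusted p = 0.00216). Its call was lost in 1 of 20 alternatives, with medians set equal (0.26, adjusted p = 0.0744).

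RPS12, which binds the head of the small subunit, had 359, 323, 342, 348 and 334 FPKM at 0h and 327, 373, 388 and 380.4 at 24h. At 96h it had 372, 382, 390.0, 369 and 397 FPKM and at 216h 423, 425, 447 and 482. Both later groups lay wholly above 0h, and 216h wholly above 96h. It rose by 0.38 ± 0.065 at 216h against 0h (limma adjusted p = 0.000524), with the call lost only when medians were set equal (0.16, adjusted p = 0.120).

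RPS13, a small subunit protein, had 368, 263, 339, 313 and 324 FPKM at 0h and 377, 431, 424 and 455 at 216h, without overlap (0.40 ± 0.118, limma adjusted p = 0.0212). RPL13 had 140.3, 141, 122, 115 and 129 FPKM at 0h and 169.9, 165, 159 and 175 at 216h, again without overlap (0.37 ± 0.102, adjusted p = 0.0136), and lost its call when medians were set equal (0.15, adjusted p = 0.279). RPS13 overlaps PIK3C2A. Its call was lost in 5 of 20 alternatives, among them leaving out 0h replicate 2 (adjusted p = 0.0524) or 216h replicate 4 (adjusted p = 0.0630).

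Among the other members called higher, named after their values were seen, were RPL23 (0.29), RPLP1 of the stalk (0.28) and RPL28 (0.20, with the sign turned to -0.02 when medians were set equal). RPLP1 had 622, 566, 629, 613 and 601 FPKM at 0h and 712, 681, 728 and 828 at 216h, without overlap. Its call was lost in 3 of 20 alternatives, with 0.06 when medians were set equal (adjusted p = 0.628), 0.16 after quantile normalization (adjusted p = 0.102) and 0.16 without mitochondrial genes (adjusted p = 0.0947). RPL28 overlapped between the groups, and the call was lost in leaving out 6 of the 9 tumors in turn. The RPL23 call was lost in 4 of 20 alternatives, among them medians set equal (0.07, adjusted p = 0.532) and leaving out 216h replicate 4 (adjusted p = 0.0555).

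RPL26L1, the paralog of RPL26, had the largest fall of the members. It had 29.4, 55.8, 61.9, 57.1 and 50.1 FPKM at 0h and 11.1, 36.8, 46.7 and 47.1 at 24h. At 96h it had 21.6, 28.8, 33.7, 35.5 and 18.9 FPKM and at 216h 23.7, 27.2, 10.2 and 16.2. All tumors of 216h lay below all of 0h, while 24h and 96h overlapped with 0h. RPL26L1 fell by 1.39 ± 0.360 on the log2 scale at 216h (limma adjusted p = 0.00936, called in all 20 alternatives), with -0.65 at 24h (adjusted p = 0.611) and -0.85 at 96h (adjusted p = 0.273) not called. RPL26 at 216h was at -0.04 (adjusted p = 0.810), and the level of RPL26L1 was 5.98 to 14.0% of that of RPL26 at 0h and 2.25 to 6.72% at 216h. RPL26L1 shares 70.9% of its 31-base words with other genes, most with RPL26P30, so its value is uncertain.

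**Figure D5:**
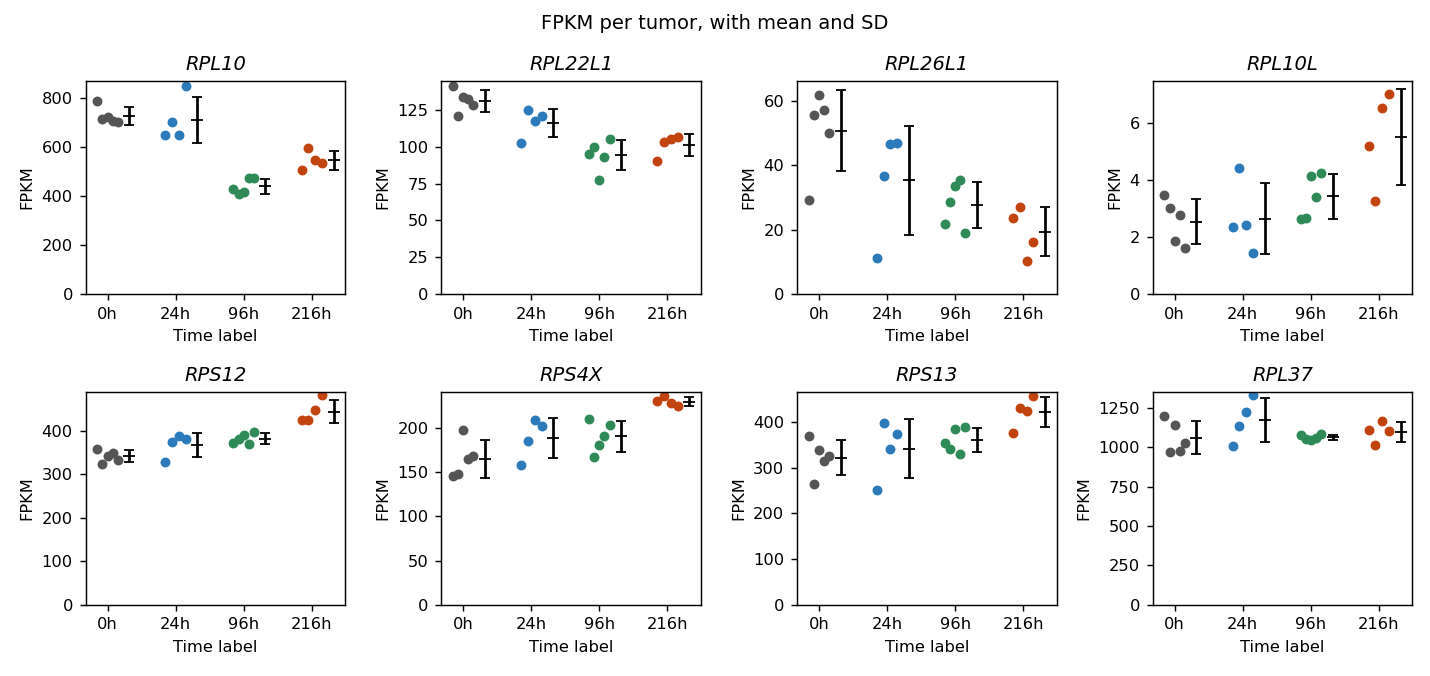
FPKM per tumor of 8 RP genes by time label, with points for tumors and bars for mean and SD. RPL10 drops to 408 to 474 FPKM at 96h, RPL22L1 and RPL26L1 end below 0h, RPS12, RPS4X and RPS13 end above it, and RPL37 overlaps in all groups.

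By subunit, 5 of 50 tested RPL genes were called higher and 3 lower at 216h, and 5 of 33 RPS genes higher and none lower, with medians of 0.03 and 0.04, where 19.7% of all tested genes were higher and 3.60% lower. The difference between the subunits was not tested. At 96h the medians were 0.06 for both and at 24h 0.12 and 0.13. RPL5 and RPL11, which bind MDM2, were at 0.06 (limma adjusted p = 0.650) and 0.24 (adjusted p = 0.0534) at 216h. RPS27A, made as a fusion with ubiquitin, was at -0.16 (adjusted p = 0.418). Among RP genes outside the symbol rule, FAU, which encodes RPS30, was at 0.28 (adjusted p = 0.0600), RACK1 at 0.13 (adjusted p = 0.242) and RPL36AL at -0.19 (adjusted p = 0.129), all at 216h against 0h. None of these 3 was called in the other comparisons.

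At 216h against 96h, 2 members were called, RPS12 (0.22 ± 0.065, limma adjusted p = 0.0401) and RPL10 (0.31), both higher, where 11.1% of all tested genes were called, 10.3% as higher and 0.747% as lower. The median was -0.00 over RP genes and 0.16 over all tested genes. No member was called higher in 4 other settings or without 96h replicate 2 or 216h replicate 3, and 1 was called higher without 96h replicate 1, 96h replicate 4 or 216h replicate 4.

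Genes that work with the RPs were followed in lists, whose counts at 216h stand beside 19.7% of all tested genes called higher and 3.60% lower. Of 21 other TOP mRNAs none was called at 24h or 96h, and at 216h 2 were higher and 1 lower, with a list median of 0.08. PABPC1, the poly(A)-binding protein, rose from 434 to 494 FPKM at 0h to 500.4 to 681 at 216h (0.31, limma adjusted p = 0.0107). TPT1 rose by 0.32 (adjusted p = 0.00873), and EIF3F, a subunit of the initiation factor eIF3, fell by 0.40 (adjusted p = 0.0152). Of 39 tested ribosome biogenesis genes 3 were lower at 216h and none higher, with a median of -0.02, and none was called at 24h or 96h. NOP56, of the box C/D snoRNPs that modify rRNA, fell by 0.48 (adjusted p = 0.00638), SBDS by 0.45 (adjusted p = 0.0280) and EIF6, which SBDS releases from new large subunits, by 0.36 (adjusted p = 0.00484).

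In the mTORC1 list, which had 18 tested entries for 17 symbols, as LARP1 is listed more than once, 4 entries were higher at 216h and none lower, with a median of 0.15 against 0.17 over all tested genes, of which 19.7% were higher and 3.60% lower. PDCD4, an inhibitor of translation that S6 kinase marks for degradation, went from 12.1 to 18.4 FPKM at 0h to 24.7 to 28.2 at 216h and rose by 0.77 (limma adjusted p = 0.00116). RPS6KB1, the S6 kinase itself, rose by 0.55 (adjusted p = 0.0122). DEPTOR, an mTOR inhibitor, had 0.274 to 0.493 FPKM at 0h and 0.962 to 1.94 at 216h, and it passed the filter only through the groups where it was high, so no test is given for it. The 18 entries and the list median include DEPTOR, and the counts were not redone without it. Of the 78 genes for mitochondrial RPs 1 was higher and 4 lower at 216h (19.7% and 3.60% of all tested genes), with a median of -0.11 against 0.17 over all tested genes, and at 96h 1 was lower with a median of -0.14.

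Among the lists of host cell markers, the leukocyte sums were higher at 216h than at 0h. The endothelial sums and the muscle and adipocyte sums overlapped 0h. The handling of mouse reads is not given, so the host origin of these values is not established. The summed level of 15 leukocyte markers was 78.5 to 119 FPKM at 0h, 73.5 to 139 at 24h, 96.0 to 123 at 96h and 164 to 249 at 216h. Of the 12 tested, 9 were called higher and 1 lower (CD68) at 216h, and PTPRC went from 1.54 to 3.23 FPKM at 0h to 3.24 to 6.09. Of 6 tested endothelial markers 1 was higher, and the sums of 10 overlapped between 0h (12.7 to 16.3 FPKM) and 216h (14.5 FPKM and above), with PECAM1 listed at 0 in 4 tumors. The sums of 12 muscle and adipocyte markers were 13.2 to 58.8 FPKM at 0h, 7.35 to 239 at 96h and 20.9 to 142 at 216h, with none called. KRT8 and KRT18, abundant in the tumor cells, were both lower at 216h (-0.79 and -1.34, limma adjusted p = 0.000114 and 1.12e-05). Their means were 184 and 191 FPKM at 0h, 145 and 128 at 24h, and 124 and 82.1 at 96h. Of 4 tested mesothelial markers 2 were called lower at 96h, where 1.06% of all tested genes were. No leukocyte marker was called at 96h. The study lists KRT8 among genes that rise and fall with YAP1-TEAD activity. Its list also holds the RP gene RPS24 (named after its values were seen), which was not called in any comparison. The mean FPKM of RPS24 differed from 0h by 8.48% at 24h, 3.54% at 96h and -5.55% at 216h. Its log2 difference at 216h was -0.08 (limma adjusted p = 0.673). A link of RPS24 to YAP1-TEAD activity was not tested. The part of host cells in the RP values was not tested.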

How the data were processed

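RNA of 18 xenograft tumors was measured after exome capture (KAPA RNA HyperPrep and HyperCap) by paired-end sequencing. The authors deposited 1 table of FPKM values per gene and tumor. STAR and the build GRCh38 are listed in the submitters' processing notes, and the quantification tool, the gene annotation and the handling of mouse reads are not given in the sources used here. FPKM divides by all mapped fragments, so that genes with large shares move the values of all others. Depth is therefore unknown and no counting interval was computed. 4 blank cells were read as 0.

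Values were taken as log2(FPKM + 1), and genes had to reach 1 FPKM in 4 or more tumors (11379 did). A single limma fit over all 4 groups followed (version 3.58.1 under R 4.3.3, lmFit and eBayes with trend), with two-sided tests and Benjamini-Hochberg adjustment at 0.05. RPL37 was tested by two-sided exact permutation (scipy 1.17.1). Tables were handled with pandas 2.3.3 and numpy 2.4.6 under Python 3.11.15, and plots drawn with matplotlib 3.10.9. The fit was tested on simulated data. Nothing in the labels names replicate cultures within the line, so p-values measure only the spread between these tumors.

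Transcript lengths, overlaps and shared 31-base words came from GENCODE 29, in which all 86 members were found, and start sites from RefSeq.

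The members and gene lists were chosen with earlier results of these data known. Named genes were RPL37, common reference genes, all paralogs, the 5 highest and lowest members at 0h, the 5 largest called rises and falls per comparison with 0h, RP genes outside the symbol rule and at most 4 called genes per list, and further names are marked. Levels of the Y-linked RPS4Y1 and RPS4Y2 enter counts only. A few other genes are not reported by name here.

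Alternatives were another pseudocount, other filters, 4 other scalings, eBayes without trend, only the groups compared, genes at 0 as a covariate, and leaving out each tumor. Fits within tumors on 1 side of the gap in genes at 0 were added after seeing the data.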

Additional observations from a re-analysis of the deposited data

Results flagged for a closer look

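In a group of 4 or 5 tumors, a value was marked when its distance to the nearest other tumor was an unusually large part of the group's range (Dixon's 95% limit). Of 85 groups of 22 members, 8 were marked, where chance marks about 1 in 20 groups, or 4.25. That rate does not hold for genes near 0. Where all tumors of a group but 1 are listed at 0, the value above 0 is always marked. The 8 therefore cannot be read as an excess over 4.25. RPL10 in 0h replicate 1 was high at 789 FPKM, with the next tumor at 722, and its falls at 96h and 216h were called without this tumor too. RPL31 in 96h replicate 3 was low at 1270.4 FPKM, with the next at 1558. RPL7L1 in 24h replicate 1 was low at 4.16 FPKM, with the next at 5.80. RPS18 in 216h replicate 1 was high at 447 FPKM, with the next at 417. The other 4 concern genes near 0, namely RPL3L in 0h replicate 1 (0.317 FPKM), 24h replicate 4 (0.0173 FPKM) and 96h replicate 4 (0.146 FPKM), and RPL39L in 0h replicate 3 (0.318 FPKM).

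The change from 0h differed between 96h and 216h, by a limma test of 216h against 96h, for RPL10 (log2 difference 0.31, adjusted p = 0.0211) and for RPS12 (log2 difference 0.22, adjusted p = 0.0401). Both share the 0h tumors as controls. RPL10 kept this call in 12 of 19 alternatives and RPS12 in 8 of 19.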

How the results depend on the processing

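No paired analysis was possible because the labels give no replicate numbers and each mouse belonged to 1 group. The absence of called members at 24h against 0h, and the falls of RPL10 and RPL26L1 at 216h against 0h, held under every alternative tried. At 216h against 0h, higher members numbered 1 with medians set equal, 4 after rescaling without mitochondrial genes and 6 among tumors with more genes at 0 (10 as reported), and 6 to 10 when each tumor was left out. Lower members numbered 14 with medians set equal and 7 after rescaling without mitochondrial genes (3 as reported). The counts under alternatives are given without the matching shares of all tested genes. At 96h against 0h, quantile normalization gave 4 higher members, and the covariate for genes at 0 gave 1 lower. At 96h against 24h, 0 lower members were left with only the 2 groups compared or only tumors with fewer genes at 0. At 216h against 96h, higher members numbered 0 with medians set equal, without mitochondrial genes, without trend or with the covariate, and 0 to 3 when each tumor was left out, and lower members numbered 4 (quantile), 5 (medians set equal) and 4 (without mitochondrial genes). The RPL37 difference turned to -0.0056 at 96h with medians set equal and was -0.022 to 0.053 when each tumor was left out, and at 216h it turned to -0.050 (quantile), -0.17 (medians set equal) and -0.068 (without mitochondrial genes). RPL28 at 216h turned to -0.020 with medians set equal. Without the mitochondrial genes the mean RP share was 16.4% at 0h, 18.8% at 24h, 17.5% at 96h and 15.6% at 216h. The causes of these changes were not tested beyond the alternative's own construction. Without counts, no depth-based limit can be given for low members such as RPL39 and RPL10L.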
